A study of Homo sapiens with 12 samples.

Results

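The IFIT and IFITM genes are 2 families of interferon-stimulated genes whose products act directly on viruses. Described here are 8 of their members, IFIT1, IFIT2, IFIT3, IFIT5, IFITM1, IFITM2, IFITM3 and IFITM10, chosen by name out of 36315 genes. They are represented by 25 of the 188753 transcripts listed in each library. RNA was measured in HMC3, an immortalized human cell line used as a model of microglia, in 12 libraries that make up 4 groups of 3. Every culture received a siRNA for 48 h and then an Fc protein, pre-clustered with an anti-human IgG, at 2 µg/mL for 24 h. The EphB2 + ephrin-B1 siRNA group received siRNA against ephrin-B1 and EphB2-Fc, a soluble form of the receptor EphB2. The EphB2 group received negative control siRNA and EphB2-Fc, the ephrin-B1 siRNA group received that siRNA and Ctrl-Fc, and the Ctrl group received negative control siRNA and Ctrl-Fc. All 4 groups, Ctrl included, had thus been transfected and exposed to a clustered Fc protein, and untreated cells are not among them.

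Ephrins and Eph receptors are membrane proteins that signal in both directions, so that a soluble EphB2 can activate ephrin-B on the cell it binds, which is called reverse signaling. IFIT and IFITM genes are switched on when interferon signaling leads transcription factors to the interferon-stimulated response element (ISRE) in their promoters. IFIT proteins bind viral RNA in the cytosol, IFIT1 by its unusual 5′ end, and form complexes with each other, whereas IFITM proteins sit in cell membranes and hinder the fusion of viruses with them. IFITM1 lies mainly at the cell surface, and IFITM2 and IFITM3 lie mainly in endosomes. IFITM10 is a distant member with no established antiviral role.

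The 4 IFIT genes are neighbors on chromosome 10, all on the plus strand (GRCh38): IFIT2 at chr10:89283694-89309271, IFIT3 at chr10:89327307-89377473, IFIT1 at chr10:89392546-89406487 and IFIT5 at chr10:89414568-89421605. IFITM2 (chr11:303655-309397, plus strand), IFITM1 (chr11:310041-315272, plus strand) and IFITM3 (chr11:319676-329475, minus strand) lie side by side at one end of chromosome 11, and IFITM10 lies apart from them (chr11:1732406-1750595, minus strand). RefSeq promoters of 300 bases (250 before and 50 after the start site, GRCh38.p14) were held for 5 members, with 2 start sites for IFIT3. For IFIT2, IFITM2 and IFITM10 no promoter was used here. The ISRE core, GAAA, any 2 bases and GAAA again, was searched on both strands (on the other strand it reads TTTC, any 2 bases and TTTC). Each of the 6 member promoters held it at least 2 times. Among all 35116 promoters of the same length, 3.57% held it at least 1 time and 0.259% at least 2 times. The stretches that hold it are shown because they are what these members share in their regulatory sequence, with the matches in capitals. A match is a description of letters and was not tested as a binding site.

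IFIT1 (chr10:89392487-89392549, plus strand): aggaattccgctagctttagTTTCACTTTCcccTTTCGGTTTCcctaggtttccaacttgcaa
IFIT3, upstream start (chr10:89327821-89327904, plus strand): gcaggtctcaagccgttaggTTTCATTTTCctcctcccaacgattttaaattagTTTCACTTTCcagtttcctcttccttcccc
IFIT3, downstream start (chr10:89332415-89332507, plus strand): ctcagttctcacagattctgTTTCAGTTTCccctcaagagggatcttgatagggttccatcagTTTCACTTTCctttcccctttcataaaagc
IFIT5 (chr10:89414503-89414573, plus strand): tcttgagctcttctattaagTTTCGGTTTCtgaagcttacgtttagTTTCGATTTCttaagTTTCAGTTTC
IFITM1 (chr11:313980-314043, plus strand): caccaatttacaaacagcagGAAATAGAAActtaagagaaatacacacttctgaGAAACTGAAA
IFITM3 (chr11:320866-320932, minus strand): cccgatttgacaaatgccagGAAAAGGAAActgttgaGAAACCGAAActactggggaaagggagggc

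The match nearest to the start site spanned it in IFIT5 and IFITM1, whereas in IFIT1, IFITM3 and at both starts of IFIT3 all matches lay before it.

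The coding sequences of IFITM1, IFITM2 and IFITM3 (375, 396 and 399 bases) hold a stretch of 99 bases that is identical in all 3 genes, of which 12 lie in one exon and 87 in the next. It is shown because a piece of sequence wholly inside it does not tell the 3 genes apart. By the paper's methods the reads were paired and slightly longer than this stretch, so a full read also covers bases beside it. In IFITM3 its exon pieces lie at chr11:320565-320576 and chr11:319904-319990 on the minus strand.

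IFITM1, IFITM2 and IFITM3, coding: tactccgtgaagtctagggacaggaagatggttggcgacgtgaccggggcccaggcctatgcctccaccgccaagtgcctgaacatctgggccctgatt

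The 60 coding bases just before it are what separates them again, with 5 bases of IFITM1 and 2 bases of IFITM2 that differ from IFITM3, in capitals. After the last capital of IFITM1, IFITM1 and IFITM3 are the same up to the stretch, so these 2 genes share a longer run.

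IFITM1 (chr11:314285-314344, plus strand): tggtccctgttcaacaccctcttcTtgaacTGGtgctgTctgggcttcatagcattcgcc
IFITM2 (chr11:308367-308426, plus strand): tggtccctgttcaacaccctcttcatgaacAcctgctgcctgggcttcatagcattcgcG
IFITM3 (chr11:320577-320636, minus strand): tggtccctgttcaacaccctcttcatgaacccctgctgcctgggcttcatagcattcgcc

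The authors assigned reads to transcripts with kallisto, which splits a read that fits several transcripts by their estimated abundances. Sharing was therefore counted in words of 31 bases over the GENCODE 44 sequences of the 167067 listed transcripts that matched a gene. The 21686 listed transcripts without a match were not scanned. Of the distinct words of IFITM3, 26.4% were also found in IFITM1 or IFITM2, against 17.3% of the words of IFITM2 and 14.6% of those of IFITM1. IFITM3 shared 235 words with IFITM2 and 136 with IFITM1, while IFITM1 and IFITM2 shared 69. Counting genes outside the members too, 40.6% of the words of IFITM1 occurred elsewhere, most of them in ENSG00000288681, a gene that overlaps IFITM1 and IFITM2 on the same strand and was listed with 0 counts in all 12 libraries. The IFIT genes shared no word with another member, and between 0.075% (IFIT5) and 6.48% (IFIT3) of their words occurred in other genes. IFITM10 shared 21.3% of its words with the overlapping gene ENSG00000250644. Of the words of its main transcript, 81.3% also lay on chr11_KI270903v1_alt, an alternate version of part of chromosome 11. Whether an unscanned transcript comes from there was not checked. Within the scanned transcripts each member had words of its own. In the most abundant transcripts of IFITM1 and IFITM3 these were 40.6% and 53.2% of all words. LIPA, on the opposite strand, overlaps IFIT1, IFIT2 and IFIT3, and whether the counting used strand is not given in the sources used here.

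**Figure D1:**
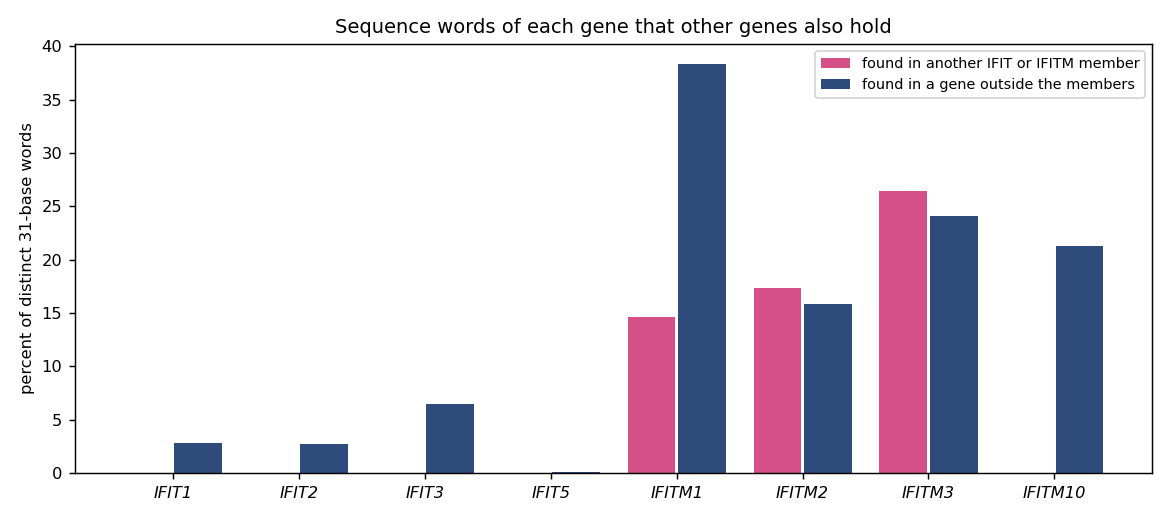
Bars give, for each member, the percent of its distinct 31-base words found in another IFIT or IFITM gene (left bars) or in a gene outside the 8 (right bars). IFITM3 has the tallest left bar at 26.4%, IFITM1 the tallest right bar at 38.3%, and the IFIT genes and IFITM10 have left bars at 0%.

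Estimated counts per library ranged from 13230689 to 25785591 (median 18694234). Replicate numbers are shared by the 4 groups, and the submitted file names give same-numbered libraries 1 experiment number (2, 3 and 5), so same-numbered libraries were also compared as pairs. EFNB1, the gene for ephrin-B1 and the target of the siRNA, was at 6.56, 6.03 and 6.38 CPM (counts scaled to library size, after TMM normalization) in EphB2 + ephrin-B1 siRNA cells, against 15.6, 18.8 and 18.4 CPM in EphB2 cells. In ephrin-B1 siRNA cells it was at 7.10, 6.60 and 8.70 CPM, against 20.4, 17.5 and 19.3 CPM in Ctrl cells. It fell to 0.360 and 0.392 of the level without that siRNA (edgeR adjusted p = 0.00189 and 0.00124), so each library matched its siRNA label. EPHB2, the cells' own receptor gene, was at 48.8 ± 2.94 CPM in ephrin-B1 siRNA cells and 66.3 ± 6.95 CPM in Ctrl cells (SD, n = 3 each, edgeR adjusted p = 0.0307). Of 12 microglia markers, 11 averaged at most 2.13 TPM, with C1QB listed at 0 in every library, and CD68 averaged 25.6 TPM, so most defining markers of the labelled cell type were at or near 0. Of 6 mesenchymal markers, FN1, VIM, COL1A1 and PDGFRB averaged 1705, 1284, 908 and 89.8 TPM, while COL1A2 averaged 12.7 TPM and COL3A1 averaged 0.039 TPM.

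IFITM3 was by far the most abundant member. Levels between genes are given in TPM, which divides by transcript length. Averaged over the 12 libraries, IFITM3 was at 1050 ± 238 TPM (SD, n = 12, rank 71 of 29719 genes with any TPM), IFITM1 at 190 ± 95.6 TPM, IFIT3 at 74.1 ± 32.7 TPM and IFITM2 at 43.1 ± 8.08 TPM. IFIT1 (38.6 ± 15.1 TPM), IFIT2 (33.6 ± 17.9 TPM) and IFIT5 (18.5 ± 3.81 TPM) followed. IFITM2, IFIT1 and IFIT2 are neighbors in this order whose means differed by less than their SD over libraries. IFITM10 was at 0.545 ± 0.540 TPM, with between 0 and 27.6 estimated counts per library. Its levels lay near the limit that a count of 0 allows, 0.227 CPM in the shallowest library at 3 counts, and no fold change is given for it.

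IFITM3 made up 75.3% to 87.4% of the TPM of the IFITM family, and IFIT3, which stabilizes IFIT1, made up 40.5% to 46.3% of the TPM of the IFIT family. The makeup of the IFITM family was not the same in all groups. IFITM1 held 19.2%, 14.7% and 15.7% of it in EphB2 + ephrin-B1 siRNA cells and 22.0%, 14.6% and 16.6% in EphB2 cells. In ephrin-B1 siRNA cells its share was 13.7%, 8.65% and 10.7%, and in Ctrl cells it was 13.6%, 8.43% and 10.3%. All 6 libraries with EphB2-Fc thus lay above all 6 with Ctrl-Fc. IFITM2 held 2.28% to 2.93% of the family in EphB2 + ephrin-B1 siRNA cells, 2.67% to 3.39% in EphB2 cells, 3.58% to 3.90% in ephrin-B1 siRNA cells and 3.45% to 5.86% in Ctrl cells. These shares are a description, and no test was made of them. They include an IFITM1 transcript of 80 bases, ENST00000525554.1, which was at 4.62 to 36.4 TPM per library. In EphB2 + ephrin-B1 siRNA replicate 2 it had 13 counts and 23.5 of the 180.6 TPM of IFITM1. In Ctrl replicate 1 it had 3 counts and 8.44 of 178.5 TPM. The nearest IFITM1 shares with EphB2-Fc and with Ctrl-Fc were 14.6% and 13.7%, and shares without this transcript were not computed. The related genes IFIT1B and IFITM5 had 37 and 60 counts over the 12 libraries, and no pseudogene of either family had more than 128.

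**Figure D2:**
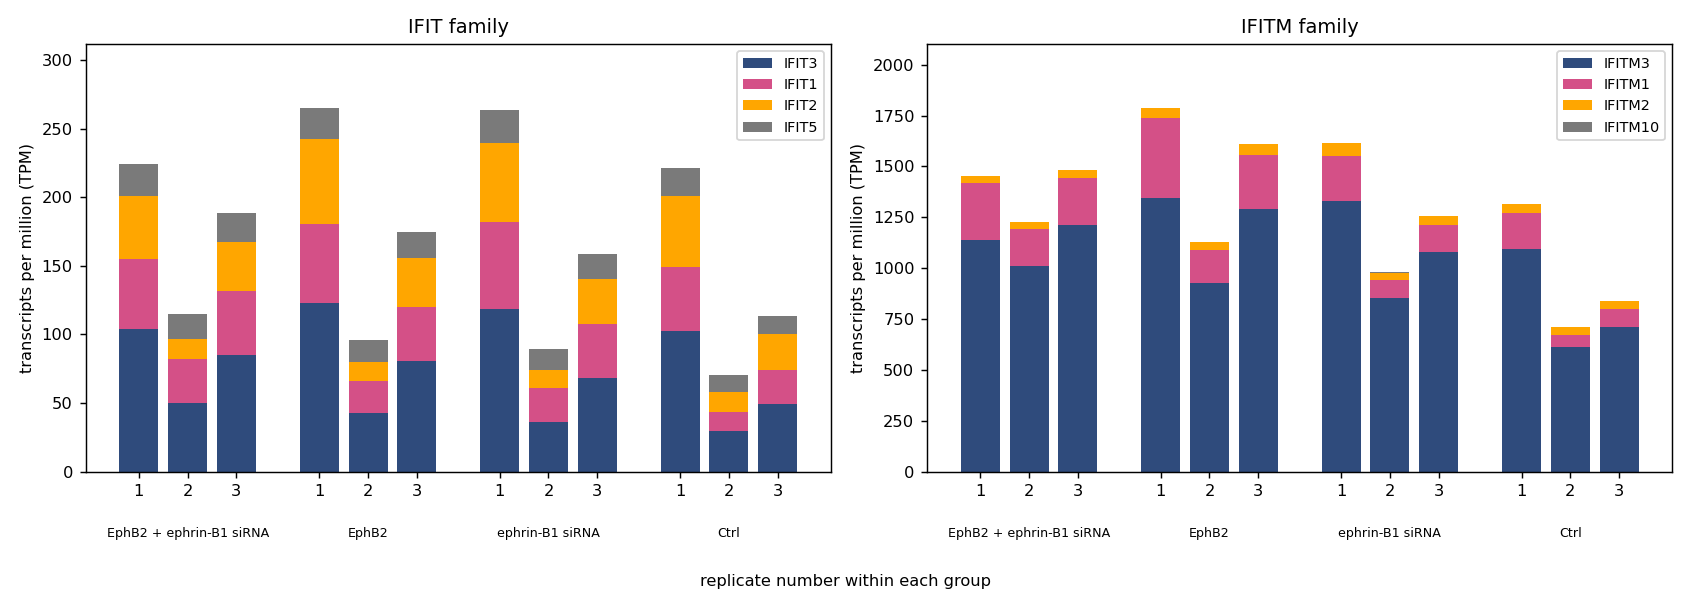
Stacked bars give the TPM of each gene in each of the 12 libraries, by group and replicate number, for the IFIT family (left) and the IFITM family (right). IFITM3 fills 75.3% to 87.4% of every IFITM bar, and replicate 2 has the lowest IFIT bar of each group (95.8 TPM in EphB2, 70.4 TPM in Ctrl).

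Several members differed widely between replicates of the same group. IFIT2, whose product binds AU-rich RNA, was 1.6 to 1.71 higher on the log2 CPM scale in replicate 1 than in replicate 2 of the same group. IFIT1 was 0.59 to 1.51 higher, IFIT3 0.97 to 1.58 higher and IFITM1 0.64 to 1.79 higher in replicate 1. Of 14272 genes with a mean of at least 1 CPM, 5.91% to 6.27% were at least 2-fold apart between these replicates, so IFIT2 was among a small part of genes in every group. IFITM3 (0.11 to 0.62), IFIT5 (0.048 to 0.52) and IFITM2 (-0.184 to 0.225) were closer together. Replicate 3 lay between the other two in 21 of 24 cases for IFIT1, IFIT2, IFIT3, IFIT5, IFITM1 and IFITM3 across the 4 groups. It did so in 2 of 4 cases for IFITM2 and in 1 of 4 for IFITM10. The share over all genes was not counted. The gap between replicates 1 and 2 was largest in Ctrl cells for IFIT1, IFIT3, IFIT5, IFITM1 and IFITM3. The cause was not tested, and in bulk RNA a change in the number of expressing cells and a change in RNA per cell cannot be told apart.

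**Figure D3:**
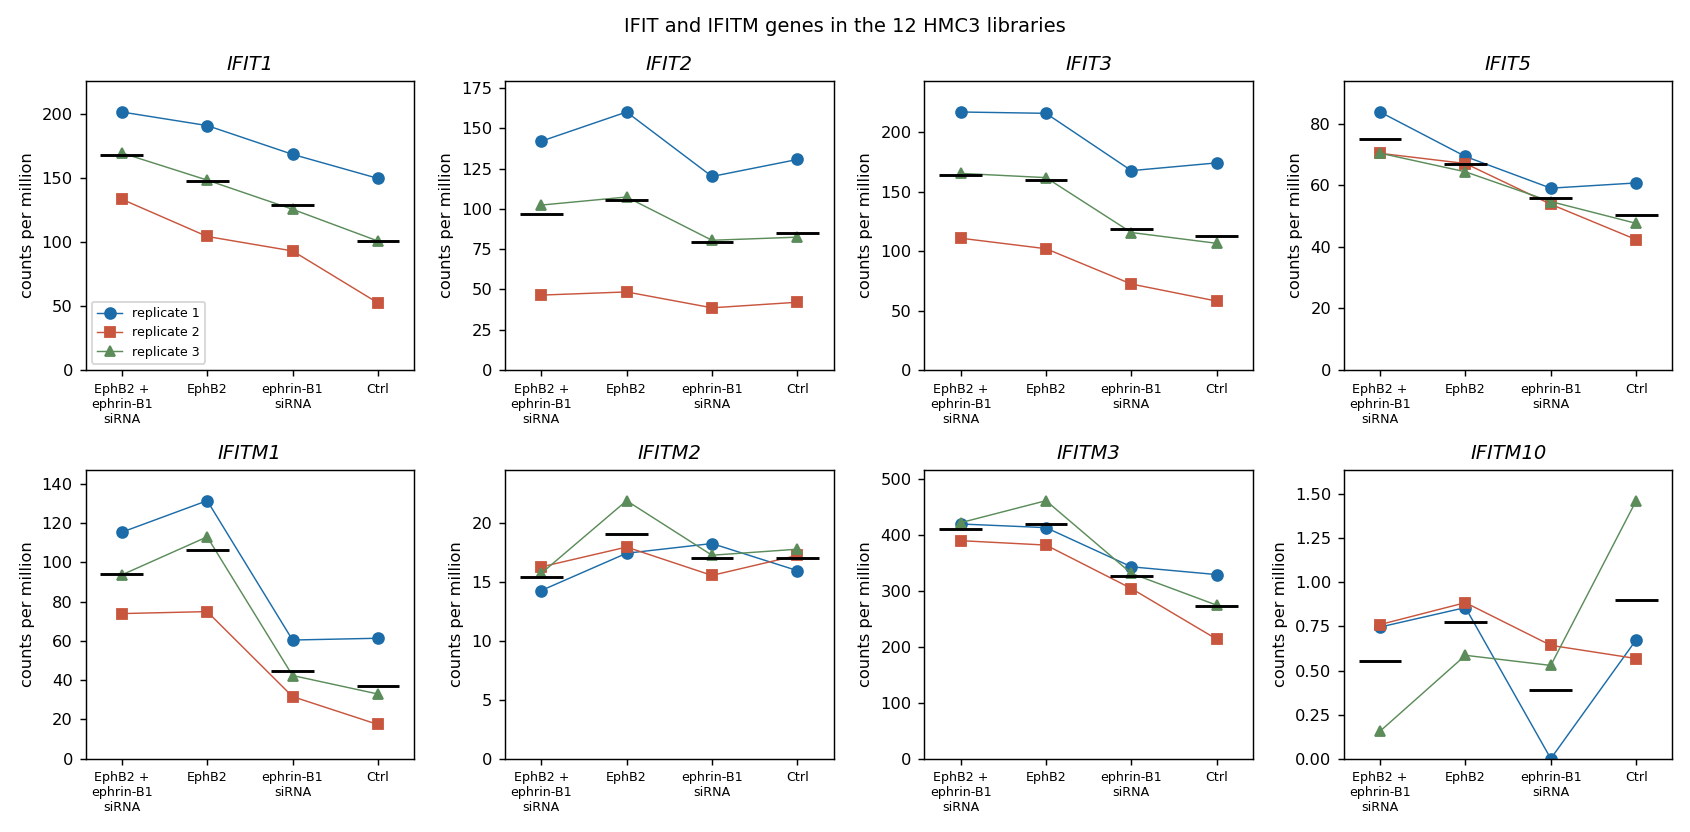
Points give CPM after TMM normalization in each of the 12 libraries, with lines joining libraries of the same replicate number and black bars at the group means (n = 3). IFITM1 sits at 74.9 to 131 CPM in EphB2 cells and 17.4 to 61.3 CPM in Ctrl cells, and replicate 2 is the lowest library of every group for IFIT1, IFIT2, IFIT3 and IFITM1.

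The comparison of EphB2 with Ctrl cells asked what EphB2-Fc did in cells with normal ephrin-B1. IFITM1 and IFITM3 were the members with the largest differences, 2.88-fold and 1.54-fold higher in EphB2 cells, and 7 of the 8 members were higher in EphB2 cells in 3 of 3 same-numbered pairs, against 18.5% of all 21601 genes tested. With edgeR's quasi-likelihood test in 1 fit of all 12 libraries, adjusted over all genes, 0 of the 8 passed the threshold of 0.05, against 0.0231% of all genes called higher. At an unadjusted p under 0.05, 3 members were higher (IFITM1, IFITM3 and IFIT5), against 4.07% of all genes. With a block for replicate number, so that libraries were compared within pairs, 6 of the 8 were called higher, against 2.13% of all genes. With the block and without replicate 3, only IFITM1 was called, against 0.329% of all genes. DESeq2 without a block called IFITM1 (adjusted p = 0.0121) and IFITM3 (adjusted p = 0.00439). It called 0.694% higher of the 11965 genes to which it gave an adjusted p. IFITM10 had no DESeq2 adjusted p except in the interaction. The median log2 fold change of the 8 members was 0.46, beside 0.0070 for all genes.

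IFITM1, which acts on viruses that enter at the cell surface, was at 131, 74.9 and 113 CPM in EphB2 cells, against 61.3, 17.4 and 32.9 CPM in Ctrl cells. Every EphB2 library lay above every Ctrl library. The log2 fold change was 1.53 ± 0.40 (SE), with an edgeR adjusted p of 0.300 without the block, 4.79e-05 with it and 0.0104 with it but without replicate 3. Within the pairs the log2 ratio was 1.10, 2.11 and 1.78. The effective length of IFITM1, a mean of kallisto's values for its transcripts weighted by TPM, varied between 322 and 457 bases. It was lowest in replicate 2 of Ctrl. In that library a transcript of 80 bases, ENST00000525554.1, had 8 counts and 18.96 of the 60.06 TPM of IFITM1. With an offset for effective length and the block, the log2 fold change was 1.44 (edgeR adjusted p = 4.73e-05).

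IFITM3, which restricts influenza and other viruses that enter through endosomes, was at 413, 381 and 461 CPM in EphB2 cells, against 329, 213 and 274 CPM in Ctrl cells. The groups did not overlap. Its log2 fold change was 0.62 ± 0.13 (SE), with an edgeR adjusted p of 0.204 without the block, 0.000517 with it and 0.0538 with it but without replicate 3. IFITM2, the close relative of IFITM3, was at 17.4, 18.0 and 21.9 CPM in EphB2 cells, against 16.0, 17.2 and 17.8 CPM in Ctrl cells. These ranges overlapped, and the log2 fold change of 0.17 ± 0.11 (SE) did not pass the test without the block (edgeR adjusted p = 0.813) or with it (0.376). Members whose 3 EphB2 libraries all lay above the 3 Ctrl libraries were IFITM1, IFITM3 and IFIT5, 3 of 8, against 6.62% of all genes. IFITM10 was at 0.857, 0.885 and 0.586 CPM in EphB2 cells, against 0.674, 0.568 and 1.46 CPM in Ctrl cells, which overlapped.

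Among the IFIT genes, IFIT5, which binds single-stranded viral RNA and lies at the end of the cluster, was the most even. It was at 69.4, 67.1 and 64.4 CPM in EphB2 cells, against 60.8, 42.4 and 47.7 CPM in Ctrl cells, and the groups did not overlap. Its log2 fold change was 0.42 ± 0.12 (SE), with an edgeR adjusted p of 0.394 without the block, 0.00271 with it and 0.104 with it but without replicate 3. IFIT1 was at 191, 104 and 149 CPM in EphB2 cells, against 150, 52.5 and 101 CPM in Ctrl cells. The ranges overlapped, although EphB2 was the higher library of each pair. Its log2 fold change was 0.55 ± 0.35 (SE, edgeR adjusted p = 0.792 without the block, 0.00600 with it and 0.112 with it but without replicate 3).

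IFIT3 was at 216, 102 and 162 CPM in EphB2 cells, against 174, 58.0 and 107 CPM in Ctrl cells, a log2 fold change of 0.51 ± 0.42 (SE). Its edgeR adjusted p was 0.879 without the block, 0.00128 with it and 0.0806 with it but without replicate 3. IFIT2 was at 160, 48.4 and 107 CPM in EphB2 cells, against 131, 42.0 and 82.4 CPM in Ctrl cells. The difference within a pair was small beside that between replicates. The log2 fold change of IFIT2 was 0.31 ± 0.55 (SE, edgeR adjusted p = 0.966 without the block, 0.00233 with it and 0.130 with it but without replicate 3). With the block it was 0.30 ± 0.047 (SE), and within the pairs the log2 ratio was 0.29, 0.20 and 0.38. In the fit without the block it turned to -0.12 without EphB2 replicate 1 and to -0.014 without Ctrl replicate 2.

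**Figure D4:**
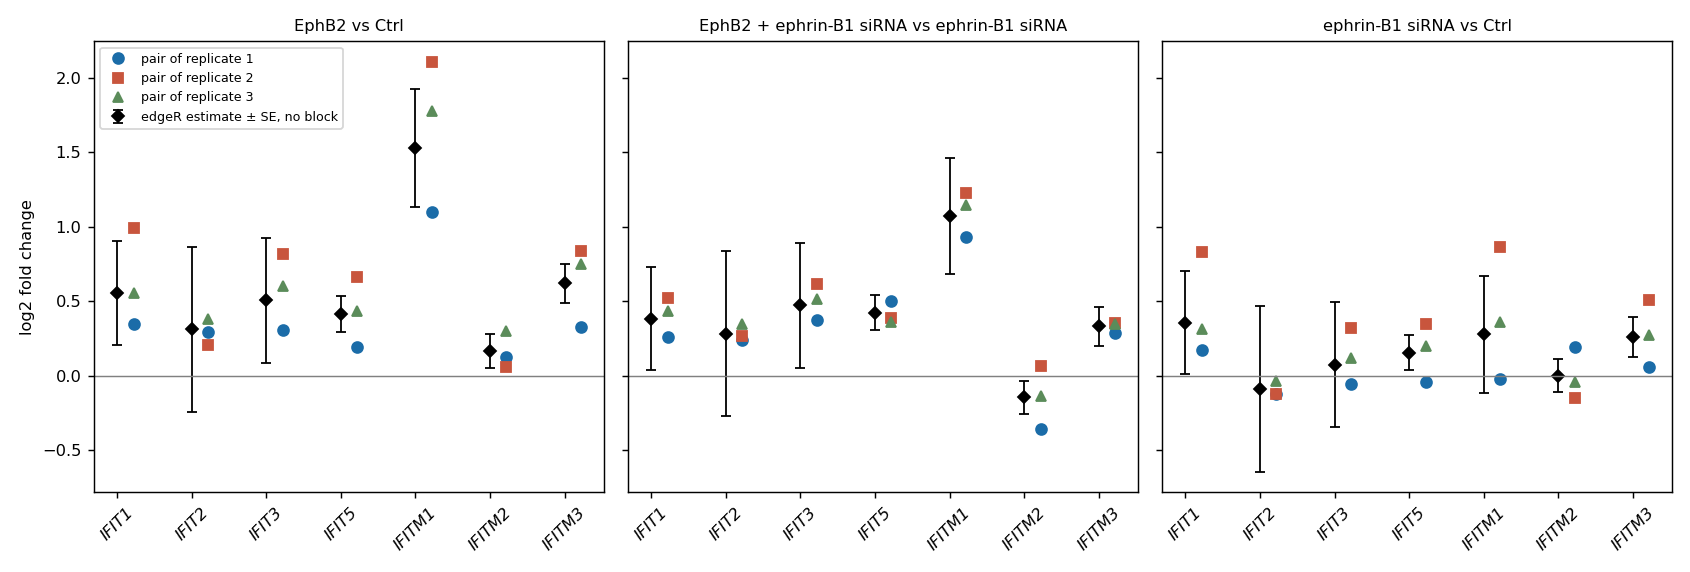
Black diamonds give the edgeR log2 fold change of 7 members with its SE in the fit without a block, and colored points the log2 ratio of CPM within each same-numbered pair, for 3 comparisons. In EphB2 vs Ctrl all pairs of the 7 genes are above 0, and IFITM1 reaches 2.11, while in ephrin-B1 siRNA vs Ctrl the points of IFITM1 run between -0.021 and 0.86.

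The comparison of EphB2 + ephrin-B1 siRNA with ephrin-B1 siRNA cells asked the same of cells with lowered ephrin-B1. The largest difference was again that of IFITM1 (2.11-fold), and 6 members were higher in 3 of 3 pairs, against 19.9% of all genes. IFITM2 and IFITM10 were not. With edgeR 0 of the 8 passed without the block, against 0.0833% of all genes called higher, with 3 members higher at an unadjusted p under 0.05, against 4.07%. DESeq2 called 0, against 1.06% of the 10709 genes to which it gave an adjusted p. The block called 6, against 2.82% of all genes, and the block without replicate 3 called IFITM1 alone, against 0.518%.

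IFITM1 was at 115, 73.9 and 93.6 CPM in EphB2 + ephrin-B1 siRNA cells, against 60.4, 31.6 and 42.4 CPM in ephrin-B1 siRNA cells, which did not overlap. Its log2 fold change was 1.07 ± 0.39 (SE, edgeR adjusted p = 0.469 without the block, 0.000557 with it and 0.0370 with it but without replicate 3). IFITM3 was at 419, 389 and 421 CPM in EphB2 + ephrin-B1 siRNA cells, against 343, 304 and 331 CPM in ephrin-B1 siRNA cells. These groups also did not overlap, with a log2 fold change of 0.33 ± 0.13 (SE, edgeR adjusted p = 0.513 without the block, 0.0223 with it and 0.216 with it but without replicate 3). IFIT5 was the third of 8 members without overlap, at 83.9, 70.5 and 70.5 CPM in EphB2 + ephrin-B1 siRNA cells, against 59.1, 53.9 and 54.8 CPM in ephrin-B1 siRNA cells, while 7.26% of all genes were so placed. The log2 fold change of IFIT5 was 0.42 ± 0.12 (SE, edgeR adjusted p = 0.293 without the block and 0.00243 with it).

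IFIT1, IFIT2 and IFIT3 had log2 fold changes of 0.38 ± 0.35, 0.28 ± 0.55 and 0.47 ± 0.42 (SE) in this comparison, with an edgeR adjusted p of 0.882, 0.977 and 0.878 without the block. With the block their adjusted p was 0.0411, 0.00278 and 0.00228. In each of them the ranges of the groups overlapped. IFIT1, for example, was at 202, 134 and 170 CPM in EphB2 + ephrin-B1 siRNA cells, against 169, 93.2 and 126 CPM in ephrin-B1 siRNA cells. With an offset for effective length and the block, 4 members were called, against 1.05% of all genes. IFITM2 was at 14.3, 16.3 and 15.7 CPM in EphB2 + ephrin-B1 siRNA cells, against 18.3, 15.5 and 17.3 CPM in ephrin-B1 siRNA cells, and did not pass (edgeR adjusted p = 0.844).

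Whether the EphB2-Fc differences depended on ephrin-B1 siRNA was tested as an interaction. With edgeR 0 of the 8 members passed, against 0% of all genes, and 0 were at an unadjusted p under 0.05, against 2.31%. The block and DESeq2 also called 0 members, against 0.00463% of all genes and 0.00926% of the 21591 genes with a DESeq2 adjusted p. The interaction of IFITM1 was -0.45 ± 0.55 (SE, log2, edgeR adjusted p = 1 without the block and 0.691 with it). For IFITM3 it was -0.29 ± 0.19 (SE, log2, edgeR adjusted p = 1 without the block and 0.666 with it). A smaller EphB2-Fc difference of these genes under ephrin-B1 siRNA was thus not shown, nor was an equal one.

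EphB2 + ephrin-B1 siRNA cells were also set against Ctrl cells, which shares its Ctrl libraries with the first comparison. Here IFIT5 and IFITM3 rose in the fit without a block, 2 of the 8 members, against 0.736% of all genes. IFIT5 was at 83.9, 70.5 and 70.5 CPM in EphB2 + ephrin-B1 siRNA cells, against 60.8, 42.4 and 47.7 CPM in Ctrl cells, a log2 fold change of 0.58 ± 0.12 (SE, edgeR adjusted p = 0.0319). IFITM3 was at 419, 389 and 421 CPM in EphB2 + ephrin-B1 siRNA cells, against 329, 213 and 274 CPM in Ctrl cells, a log2 fold change of 0.59 ± 0.13 (SE, edgeR adjusted p = 0.0462). Both calls were lost, with 0 members called, without replicate 2 or 3 of Ctrl, or without any of the 3 EphB2 + ephrin-B1 siRNA libraries. Without replicate 1 of Ctrl, 3 members were called. The share of all genes called in these fits is not given here, so the counts cannot be read as particular to the members.

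IFITM1 had the largest difference in this comparison too, a log2 fold change of 1.35 ± 0.39 (SE, edgeR adjusted p = 0.121 without the block, 2.31e-05 with it). For IFIT1, IFIT3 and IFIT2 the log2 fold changes were 0.74 ± 0.35, 0.55 ± 0.42 and 0.20 ± 0.55 (SE), with an edgeR adjusted p of 0.395, 0.685 and 0.946 without the block. With the block their adjusted p was 0.000216, 0.000166 and 0.0133. The block called 6 of the 8 members, against 6.06% of all genes, and 5 of 8 without replicate 3, against 2.23%. IFITM2 had a log2 fold change of -0.14 ± 0.11 (SE, edgeR adjusted p = 0.695).

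Ephrin-B1 siRNA alone made smaller differences. In ephrin-B1 siRNA against Ctrl cells, edgeR called 0 of the 8 members, against 0.657% of all genes called higher. At an unadjusted p under 0.05, 0 were higher, against 5.81%. DESeq2 called 0, against 3.8% of the 12383 genes to which it gave an adjusted p. With the block 2 were called higher, against 6.51% of all genes, IFIT1 (log2 fold change 0.36 ± 0.35 SE without the block, edgeR adjusted p = 0.806 without it and 0.0248 with it) and IFITM3 (0.26 ± 0.13 SE, 0.478 without it and 0.0357 with it). With the block and without replicate 3, 0 members were called, against 1.49% of all genes. IFIT1 was at 169, 93.2 and 126 CPM in ephrin-B1 siRNA cells, against 150, 52.5 and 101 CPM in Ctrl cells, with the widest gap in replicate 2. IFITM1 had log2 ratios of -0.021, 0.86 and 0.36 within the pairs, so its pairs did not share a direction.

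Under EphB2-Fc, EphB2 + ephrin-B1 siRNA cells were set against EphB2 cells. With edgeR 0 of the 8 members passed without or with the block, against 0.616% and 9.93% of all genes in either direction. DESeq2 called 0, against 5.16% of the 12802 genes to which it gave an adjusted p. The lowest p belonged to IFITM2, the only member with an unadjusted p under 0.05, against 10.4% of all genes. It was at 14.3, 16.3 and 15.7 CPM in EphB2 + ephrin-B1 siRNA cells, against 17.4, 18.0 and 21.9 CPM in EphB2 cells. All 3 libraries lay below those of EphB2 cells, as in 7.65% of all genes, and the log2 fold change was -0.31 ± 0.11 (SE, edgeR adjusted p = 0.331 without the block and 0.0549 with it). IFIT5 lay above in all 3 libraries, as in 6.89% of all genes, at a log2 fold change of 0.16 ± 0.12 (SE, edgeR adjusted p = 0.747). IFITM1 and IFITM3 had log2 fold changes of -0.17 ± 0.38 and -0.029 ± 0.13 (SE), with an edgeR adjusted p of 0.957 and 0.982.

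Since IFITM1, IFITM2 and IFITM3 share sequence, their counts were also added into 1 feature, whose value does not depend on how reads were split among them. In EphB2 against Ctrl cells its log2 fold change was 0.74 ± 0.16 (SE), with an edgeR adjusted p of 0.196 without the block, 0.000117 with it and 0.0258 with it but without replicate 3. In EphB2 + ephrin-B1 siRNA against ephrin-B1 siRNA cells it was 0.42 ± 0.15 (SE, edgeR adjusted p = 0.475 without the block, 0.00512 with it and 0.111 with it but without replicate 3). IFITM3 supplies most of this sum. The difference between IFITM1 and IFITM3 in their fold changes does rest on the split, and the error of the split is not part of these counts.

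None of the 24 member transcripts tested was called in EphB2 against Ctrl cells by edgeR without or with the block, although 5 of them had an unadjusted p under 0.05, all higher in EphB2, against 4.19% of all 110513 transcripts tested. Of all transcripts, 0% were called without the block and 0.00905% with it. IFITM3 counts came almost wholly from ENST00000399808.5 (99.6% to 99.9% per library, log2 fold change 0.63 ± 0.15 SE), and 79.4% to 87.3% of those of IFITM1 from ENST00000408968.4 (1.51 ± 0.43 SE). The second transcript of IFITM1, ENST00000328221.5, differed in the same direction (1.69 ± 0.50 SE). IFIT1 and IFIT3 also had 1 leading transcript each, with 91.1% to 97.5% and 73.5% to 84.0% of the counts.

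IFITM2 was spread over 4 transcripts with no stable leader. Its ENST00000399817.8 held between 9.09% and 52.2% of the gene's counts in a library and ENST00000602569.1 between 8.52% and 50.04%. The nonsense-mediated decay transcript ENST00000527146.1 had the lowest p of IFITM2 in EphB2 against Ctrl cells, a log2 fold change of 1.03 ± 0.33 (SE, edgeR adjusted p = 1). In IFIT2 the leading transcript ENST00000371826.4 held 60.05% to 88.85% of the counts, lowest in replicate 2 of Ctrl.

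Other interferon genes were counted beside the members, from lists of known roles. Of 54 other interferon-stimulated effectors, 53 lay above 0 on the log2 fold scale when EphB2 was set against Ctrl cells (median 0.59, beside 0.0070 for all genes, of which 51.4% lay above 0), and 1 was called without the block, against 0.0231% of all genes called higher. This was PNPT1, an RNA exonuclease of mitochondria, at 85.9 ± 10.6 CPM in EphB2 cells and 55.0 ± 1.77 CPM in Ctrl cells (SD, n = 3 each, edgeR adjusted p = 0.0374). With the block 48 of the 54 were called higher, against 2.13% of all genes, and 11 with it but without replicate 3, against 0.329%. In EphB2 + ephrin-B1 siRNA against ephrin-B1 siRNA cells, 53 of the 54 were again positive (median 0.41). Without the block 0 were called, with it 41, against 2.82% of all genes, and 7 with it but without replicate 3, against 0.518%. LAP3, EIF2AK2 (protein kinase R, which stops translation on double-stranded RNA) and PLSCR1 had log2 fold changes of 0.63, 0.51 and 0.70, with an edgeR adjusted p of 0.0906, 0.120 and 0.135 without the block. With the block it was 0.00124, 0.00148 and 0.000727, and without replicate 3 as well it was 0.0875, 0.0972 and 0.0517.

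Of 24 interferon signaling components, from ligands and receptors to STAT and IRF factors, 0 were called without the block, and 4 were called higher and 2 lower with it, beside 461 higher and 692 lower among all 21601 genes. With the block but without replicate 3, 0 were called. STAT2 and IRF9, transcription factors of interferon signaling, had log2 fold changes of 0.23 and 0.37, and SOCS3, an inhibitor of cytokine signaling, one of -0.24 (edgeR adjusted p = 0.426, 0.607 and 0.399 without the block). With the block STAT2 and IRF9 were among those called higher and SOCS3 among those called lower (edgeR adjusted p = 0.0356, 0.0401 and 0.0275), and without replicate 3 as well their adjusted p was 0.339, 0.357 and 0.184.

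Of 12 sensors of viral RNA and DNA, 0 were called without the block, 3 were called higher with it, against 2.13% of all genes, and 1 with it but without replicate 3, against 0.329%. RIGI, a cytosolic RNA sensor, was at 124 ± 24.3 CPM in EphB2 cells and 68.5 ± 27.2 CPM in Ctrl cells (SD, n = 3 each, edgeR adjusted p = 0.431 without the block, 0.000140 with it and 0.0184 with it but without replicate 3). IFI16, a DNA sensor that is also on the effector list, had a log2 fold change of 0.56, TICAM1, the adaptor of TLR3, one of 0.32, and IKBKE, a kinase of interferon regulatory factors, one of 0.27. Their edgeR adjusted p was 0.271, 0.823 and 0.831 without the block. In the fit with the block it was 0.00159, 0.0207 and 0.2498. Without replicate 3 as well it was 0.0879, 0.327 and 0.243.

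Of 7 partners and modifying enzymes of IFITM proteins, 0 were called without the block, and 1 was called higher and 1 lower with it, again beside 461 higher and 692 lower among all genes. With the block but without replicate 3, 0 were called. ZDHHC20, which attaches palmitate to IFITM3, was at 67.9 ± 3.37 CPM in EphB2 cells and 79.1 ± 3.46 CPM in Ctrl cells (SD, n = 3 each, edgeR adjusted p = 0.431 without the block, 0.0308 with it and 0.315 with it but without replicate 3). SMURF1 and SMURF2, ubiquitin ligases, and SETD7, a methyltransferase, had log2 fold changes of 0.17, 0.25 and 0.053, of which that of SMURF2 was called with the block (edgeR adjusted p = 0.00971, and 0.259 without replicate 3). The median of this list was 0.038, beside 0.0070 for all genes.

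Genes whose pattern over the 12 libraries was most like that of a member were found among 11439 genes with a mean of at least 5 CPM, by the root mean square difference of centered log2 CPM. For IFIT1 these were TRIM22 (0.0848), SAMD9 (0.102), EPSTI1 (0.107), UBE2L6 (0.114) and PARP10 (0.118), beside a median of 0.551 over those genes. For IFITM3 they were SP100 (0.0658), PARP9 (0.1), PLSCR1 (0.108), DTX3L (0.108) and TRIM14 (0.108), beside a median of 0.353. Among the members, IFIT3 was nearest to IFIT1 (0.171) and IFIT5 was nearest to IFITM3 (0.129), whereas IFIT1 and IFITM3 were 0.313 apart. The libraries share replicate numbers, so these values describe replicate and group differences together.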

How the data were processed

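RNA of HMC3 cells was measured in 12 rRNA-depleted libraries. The authors ran kallisto (version not given in the sources used here) against transcripts of GRCh38, a build given in the submitters' processing notes, and deposited estimated counts per transcript without further scaling. The TPM column is also as deposited by the authors, from kallisto's counts and effective lengths. By identifier, 167067 of 188753 transcripts (88.5%) matched a gene of GENCODE 44, which covered 95.25% to 95.98% of each library's counts. GENCODE 44 has 123 member transcripts, of which 25 are in the tables and 96 carry a number above the largest one there. The paper names an Ensembl release for its reference, and whether the listed transcripts match it was not checked. The IFITM2 transcripts ENST00000399817.8, ENST00000602569.1 and ENST00000616316.1 were listed with 659, 605 and 892 bases. In GENCODE 44 they have 713, 556 and 1006 bases, so word sharing of IFITM2 was counted on other versions of them.

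For each gene the estimated counts of its transcripts were added and rounded to whole numbers. Genes needed 10 or more counts in all (21601 genes). The test was edgeR 4.0.16 (TMM, quasi-likelihood, 4 groups in 1 fit without a block, Benjamini-Hochberg over all genes, threshold 0.05). SE is the log2 fold change divided by the root of F. Alternatives were a block for replicate number, DESeq2 1.42.0, limma 3.58.1 on log2(TPM + 1) and log2(TPM + 0.1), other scaling and filters, an offset for effective length, the most abundant transcript alone, IFITM1 to IFITM3 pooled, and libraries left out. Blocks without replicate 1 or 2, blocks with pooled IFITM genes and the block with the offset were chosen after seeing the data. The fits without and with the block were each run on counts simulated from their own model. The outcome is not given here, and such a run does not compare the 2 fits. Software was R 4.3.3 and Python 3.11.15 with pandas 2.3.3, numpy 2.4.6, scipy 1.17.1 and matplotlib 3.10.9.

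Pairs come from the experiment number in the submitted file names. Deviations from group means over 14272 genes correlated between same-numbered libraries at 0.64 to 0.73 (replicate 1), 0.68 to 0.71 (replicate 2) and 0.026 to 0.18 (replicate 3). A replicate that lies between the other two can deviate little from its group mean, but whether replicate 3 does so over all genes was not counted. Whether replicate 3 is paired by its values or only by its file name was not tested further. Whether replicates are separate cultures is not said in the labels, while the paper calls the replicates of its RNA sequencing biological. The p-values measure the spread between these libraries. Depth was 13230689 to 25785591 counts, and the limit of 3 counts covers counting error only. The members and lists were chosen with earlier results of these data known. Named genes are the 8 members, EFNB1, EPHB2, IFIT1B, IFITM5, up to 4 genes of each list with the smallest p in EphB2 vs Ctrl, and the 5 genes most like IFIT1 and IFITM3. The values of 1 gene that this rule names are not reported here. Outside the rule, cell type markers and genes that overlap or share sequence with a member are named, some of them chosen after their values were seen. Promoters are from RefSeq (GRCh38.p14), and coding stretches were read from hg38 at GENCODE 44 positions.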

Additional observations from a re-analysis of the deposited data

How the results depend on the processing

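In EphB2 vs Ctrl, where 0 members were called without a block, 6 were called with the replicate block in edgeR, with it in DESeq2, with it and the offset for effective length, and with it without replicate 1 or without replicate 2. Only 1 was called with the block without replicate 3 (also with IFITM1 to IFITM3 pooled), 2 with DESeq2 and 5 with the block and pooled IFITM genes. Of all genes tested, 413 of 11550 were called higher with the block in DESeq2 and 164 of 21601 with it and the offset. The block called 347 of 20362 higher without replicate 1 and 256 of 20683 without replicate 2. With pooled IFITM genes it called 460 of 21599 higher, and 68 of 20656 without replicate 3. In EphB2 + ephrin-B1 siRNA against ephrin-B1 siRNA the count of 0 moved to 6 with the replicate block, 6 with it without replicate 1, 5 without replicate 2, 1 without replicate 3, 5 with it in DESeq2, 5 with it and pooled IFITM genes and 4 with it and the offset. There the block called 401 of 20362 genes higher without replicate 1 and 404 of 20683 without replicate 2. It called 556 of 12387 higher in DESeq2 and 607 of 21599 with pooled IFITM genes.

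In EphB2 + ephrin-B1 siRNA vs Ctrl the count of 2 moved to 6 with the replicate block, with it without replicate 1 or 2 and with it in DESeq2, to 5 with it without replicate 3, with it and the offset or with it and pooled IFITM genes, and to 4 with pooled IFITM genes and the block without replicate 3. It moved to 1 with DESeq2 size factors in edgeR or with pooled IFITM genes, and to 0 with library totals only, only the groups compared, the offset alone, both limma fits or the most abundant transcript. Where 0 members were called, genes called higher were 201 of 21601 with library totals only and 25 of 19729 with only the groups compared. They were 48 of 21601 with the offset alone, 2 and 3 of 21601 in the limma fits and 66 of 21278 with the most abundant transcript. Leaving out libraries gave 0 to 3 members, in fits whose share of all genes called is not given here. The block called 1129 of 20362 genes higher without replicate 1, 780 of 20683 without replicate 2 and 1088 of 12806 in DESeq2. It called 608 of 21601 higher with the offset, 1308 of 21599 with pooled IFITM genes and 460 of 20656 with these without replicate 3. Without the block, 165 of 21601 were called higher with DESeq2 size factors and 158 of 21599 with pooled IFITM genes. In ephrin-B1 siRNA vs Ctrl the count of 0 moved to 2 with the replicate block, 4 with it without replicate 1 and 2 with it and pooled IFITM genes. In the last 2 of these settings, 1178 of 20362 and 1404 of 21599 genes were called higher. In EphB2 + ephrin-B1 siRNA vs EphB2 and in the interaction the replicate block changed no call.

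IFIT2 turned with single libraries in the fit without a block. Its log2 fold change there, without 1 library or replicate, ran between -0.12 and 0.76 in EphB2 vs Ctrl. It ran between -0.11 and 0.70 in EphB2 + ephrin-B1 siRNA against ephrin-B1 siRNA and between -0.19 and 0.64 in EphB2 + ephrin-B1 siRNA vs Ctrl. It ran between -0.51 and 0.36 in ephrin-B1 siRNA vs Ctrl, and between -0.49 and 0.32 in EphB2 + ephrin-B1 siRNA vs EphB2. With the block and without replicate 1, 2 or 3, IFIT2 was at 0.30, 0.33 and 0.24 in EphB2 vs Ctrl. Likewise without the block, in ephrin-B1 siRNA vs Ctrl, IFIT3 ran between -0.26 and 0.53, IFITM1 between -0.066 and 0.83 and IFITM2 between -0.092 and 0.071. In EphB2 + ephrin-B1 siRNA vs EphB2, IFIT1 ran between -0.011 and 0.41, IFIT3 between -0.20 and 0.32, IFITM1 between -0.37 and 0.0055 and IFITM3 between -0.091 and 0.049. With limma on log2(TPM + 1) and log2(TPM + 0.1), IFIT2 was at -0.015 and -0.013 in EphB2 + ephrin-B1 siRNA against ephrin-B1 siRNA and at 0.10 and 0.11 in ephrin-B1 siRNA vs Ctrl. These TPM fits also moved the median of all genes, to -0.199 and -0.271 in the first of these comparisons to 0.120 and 0.180 in the second, and to -0.172 and -0.232 in the interaction.

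With the most abundant transcript alone, IFITM2 turned to -0.049 in EphB2 vs Ctrl, 0.42 in EphB2 + ephrin-B1 siRNA against ephrin-B1 siRNA, 1.02 in EphB2 + ephrin-B1 siRNA vs Ctrl and 1.07 in EphB2 + ephrin-B1 siRNA vs EphB2. In ephrin-B1 siRNA vs Ctrl, IFITM2, which was near 0, turned to -0.094 with the replicate block without replicate 1, -0.0037 with a minimum of 1 CPM in 3 libraries, -0.016 with the offset and -0.013 with the offset and the replicate block. IFITM3 in EphB2 + ephrin-B1 siRNA vs EphB2 was at 0.048 with the replicate block without replicate 3 and at 0.0017 with library totals only. The cause was not tested for any of these. Of 187 values of members under alternatives in EphB2 vs Ctrl, 147 kept their direction and side of the threshold, 37 passed it newly and 3 turned. Depth limits IFITM10, which had at most 27.6 estimated counts in a library. Whether listed transcripts without a matching gene took some of its reads was not checked.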
